A study of Mus musculus with 6 samples.

Results

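The amino acid transporters of the liver were examined in mice fed a cholesterol-lowering drug pair or cholesterol. The members were all genes of the 7 families Slc1a, Slc3a, Slc6a, Slc7a, Slc36a, Slc38a and Slc43a whose symbol ends in a number after the family name and that had a probe set of their own. These were 60 of the 19938 genes measured, and each gene was read on its brightest probe set. RNA from whole livers of C57BL/6 males (a standard inbred mouse) was hybridised to 6 Affymetrix Mouse Gene 1.0 ST arrays. The LE group (3 arrays) was fed chow with 100 mg lovastatin and 21 mg ezetimibe per 100 g, and the CH group (3 arrays) was fed chow with 1% cholesterol. All mice were obtained at 6 weeks of age and had 1 week on plain chow before the diets. Lovastatin inhibits the reductase that commits the cell to making sterols, and ezetimibe keeps dietary sterol from being absorbed. The time on the diets is not given in the labels, and the chow group that they mention was not analysed here. The labels describe the arrays as biological replicates without tying them to single animals, so the p-values below reflect variation among arrays, part of which can be technical.

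Cells take up, exchange and release amino acids through carriers of several unrelated families. Most carriers of the Slc1a, Slc6a and system A Slc38a groups are driven by sodium and load the cell, though Slc1a4 and Slc1a5 are exchangers. The light chains of Slc7a mostly exchange amino acids and reach the plasma membrane only when bound to a heavy chain of Slc3a. The liver takes up amino acids from the portal blood for protein synthesis, gluconeogenesis and the urea cycle, and glutamine, arginine and the branched-chain amino acids each have their own carriers. Several Slc6a members carry neurotransmitters, taurine, betaine or creatine rather than protein amino acids, so the families are broader than their shared name.

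Transporters changed in both directions, and the heavy chains of the exchangers and the glutamine exchanger Slc1a5 changed the most. Of the 60 transporters, 8 rose and 6 fell with lovastatin and ezetimibe, and 46 did not pass (limma, Benjamini-Hochberg adjusted p under 0.05). Changes are given as LE minus CH on the log2(intensity + 1) scale with the standard error (SE) of the fit, and folds are taken from the same values. The share called was 23.3%, against 12.1% of all genes. Those called higher made up 13.3% of the transporters, against 7.01% of all genes, and those called lower were 6 of 60, against 5.08% of all genes. A rise of at least 1.5-fold was called for 3 transporters (5.0%; all genes 1.58%) and a fall of that size for 0 of the 60 (all genes 0.602%). The median change of the 60 was log2 0.01, beside a median of 0.00 for all genes, and the median size of change without its sign was 0.08 in both. In 22 transporters (36.7%) the arrays of the 2 diets did not overlap, as was so for 30.6% of all genes. In 14 of these (23.3% of the 60; all genes 15.9%) the LE arrays were above, and in 8 (13.3%; all genes 14.7%) they were below. The number of lower transporters was 3 when LE2, CH1, CH2 or CH3 was left out, against 6 with all arrays.

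Most calls were among the brighter transporters, as they were among all genes. Of the 60, 23 lay in the dimmest 33.3% of all genes, with intensities of 18.8 to 132.3, and 1 of them (Slc6a16) passed. Of all genes in the dimmest 33.3%, 3.17% passed. Of the other 37, 8 rose and 5 fell, a share of 35.1% against 16.5% of the genes outside the dimmest 33.3%. Dim members include Slc7a11, Slc1a1, Slc7a9, Slc6a14 and Slc6a19, carriers best known from cultured cells, kidney, gut or brain. The files give no detection call, so whether these lie above background is not known.

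**Figure D1:**
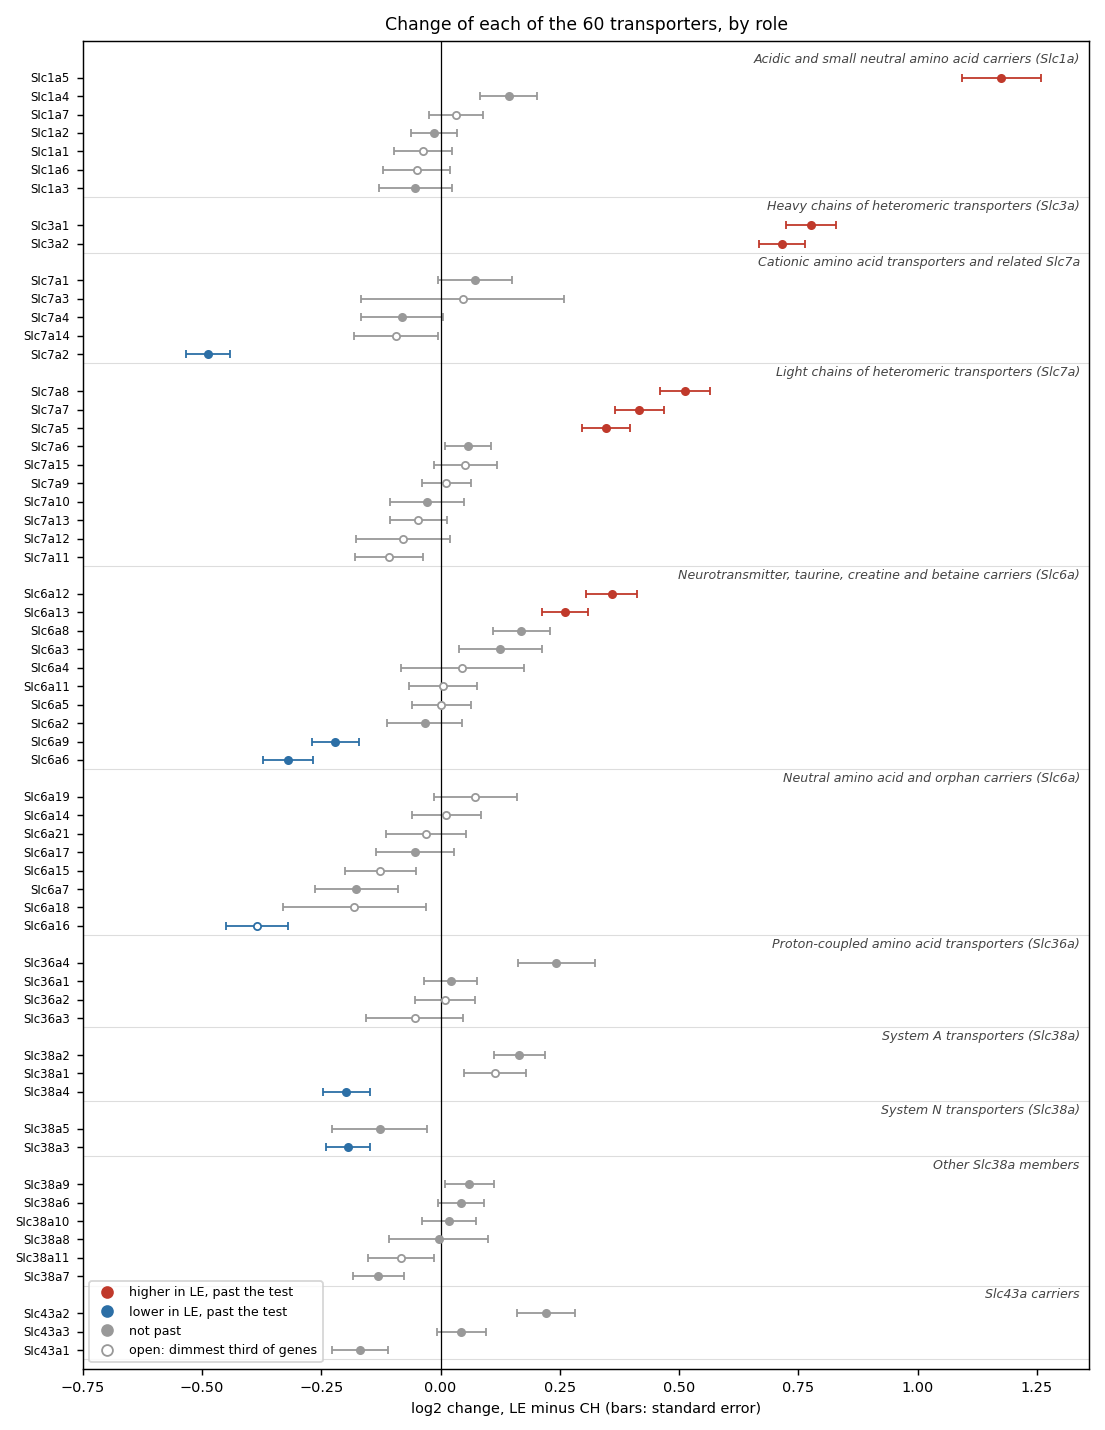
Change of each of the 60 transporters, grouped by role, as log2 LE minus CH on the horizontal axis with bars for the standard error; red and blue points passed the test as higher and lower, grey points did not, and open points lie in the dimmest 33.3% of genes. Both heavy chains stand near 0.7 to 0.8, Slc1a5 at 1.18 and Slc7a2 at -0.49, while most members lie close to 0.

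Both heavy chains rose. Slc3a2 encodes the heavy chain that carries the light chains Slc7a5, Slc7a6, Slc7a7, Slc7a8, Slc7a10 and Slc7a11 to the cell surface, and it had intensities of 4451, 4384 and 4640 in LE livers, against 2752, 2730 and 2715 in CH livers. The lowest LE array was well above the highest CH array, and the CH arrays were nearly equal. The change was 1.64-fold (log2 0.72, SE 0.05, adjusted p = 5.85e-05). Slc3a1, the heavy chain that pairs with Slc7a9 in the uptake of cystine and basic amino acids, had 2622, 2636 and 2834 in LE livers, against 1592, 1543 and 1588 in CH livers. The groups were again far apart, with LE3 the highest array. Its change was 1.71-fold (log2 0.78, SE 0.05, adjusted p = 6.21e-05). Slc7a9, its usual partner, had a mean of 82.9 ± 1.2 in LE livers and 82.3 ± 3.5 in CH livers (SD, n = 3 each), in the dimmest 33.3% of genes.

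Of the 10 light chains, 3 rose, 0 fell and 7 did not pass, and each that rose is a partner of Slc3a2. Over all genes, 7.01% rose and 5.08% fell. Slc7a8, an exchanger of large and small neutral amino acids, had 364.0, 372.9 and 395.3 in LE livers, against 263.5, 269.8 and 259.5 in CH livers (1.43-fold, log2 0.51, SE 0.05, adjusted p = 5.95e-04). Slc7a7, which exports basic amino acids in exchange for neutral ones, had 238.5, 244.6 and 236.5 in LE livers, against 180.5, 185.8 and 172.2 in CH livers (1.33-fold, log2 0.42, SE 0.05, adjusted p = 0.00153). The arrays of each diet lay within a narrow band for both genes, with a gap between the bands. Slc7a5, the exchanger of leucine and other large neutral amino acids that many growing cells rely on, had 446.9, 437.0 and 416.1 in LE livers, against 336.1, 347.3 and 338.2 in CH livers (1.27-fold, log2 0.35, SE 0.05, adjusted p = 0.00367). It too had no overlap between the diets.

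The other partners of Slc3a2 were not called. Slc7a6, a close relative of Slc7a7, had 126.2, 120.9 and 121.4 in LE livers, against 120.2, 116.1 and 117.5 in CH livers (log2 0.06, SE 0.05, adjusted p = 0.525). Slc7a11, which imports cystine for glutathione in exchange for glutamate, had 50.6, 48.4 and 44.6 in LE livers, against 53.2, 54.3 and 47.6 in CH livers (log2 -0.11, SE 0.07, adjusted p = 0.417). The diets overlapped for Slc7a11, and its signal lay in the dimmest 33.3% of genes. The remaining light chains that were not called, Slc7a9, Slc7a10, Slc7a12, Slc7a13 and Slc7a15, had changes between log2 -0.08 and 0.05.

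Slc7a7 and Slc7a8 are also expressed by macrophages, and macrophage markers moved with the diet. Of the Kupffer cell and macrophage markers, 12 of 12 rose (median log2 0.39), and their summed intensity was 13104 to 13448 in LE livers, against 9718 to 10383 in CH livers, with 0 of the 12 at an intensity of 0. The part of these cells in the changes of the transporters was not tested. In bulk tissue, more cells of a type and more RNA per cell cannot be told apart. Hepatocyte markers were bright and steady, with 0 of 7 called and a summed intensity of 123149 to 128798 in LE livers, against 123201 to 126447 in CH livers. Of the other marker lists, 0 of 6 cholangiocyte, 0 of 8 endothelial, 0 of 8 T and NK cell, 0 of 6 neutrophil and 0 of 4 pancreatic acinar markers were called. In the stellate cell list 1 of 8 fell, in the B cell list 1 of 4, in the erythroid list 1 of 3 and in the intestinal list 1 of 6. Of 9 pericentral hepatocyte markers 3 rose and 0 fell, and of 5 periportal ones 1 rose and 2 fell. The periportal markers that fell, Hal and Arg1, and the pericentral riser Glul are counted again among the catabolic enzymes below. The pericentral list also holds the transporter Slc1a2, which was not called. Beside these marker counts, 7.01% of all genes rose and 5.08% fell. A single call in a list this short cannot be judged against those shares.

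Promoter windows from RefSeq (GRCm38.p6, 250 bases before to 50 after an annotated start) were at hand for 43 of the 60 transporters and 9 of the 14 called ones, and some genes have several starts. They were searched on both strands for a sterol regulatory element, the site of SREBP factors (the letters ATCAC and CCAC with any base between), for TGATGNAA, the C/EBP-ATF response element through which ATF4 acts on amino acid genes, and for TGACNNNGC, the antioxidant response element. The first was in 0 of the 43 genes, as against 0.27% of 27025 genes in the table. At so low a share, finding none in 43 genes says little. The second was in 4 of the 43 genes, against 4.511% of all genes. These were Slc1a4, Slc6a21, Slc7a7 and Slc7a11, 1 of which, Slc7a7, rose. The third was in 9 of the 43 genes, against 13.991% of all genes. Of the 9, 3 were called: Slc6a13, which rose, and Slc6a9 and Slc6a16, which fell. Over all genes 12.1% were called, a share against which so few motif holders cannot be judged. A match is a description of the letters and shows no binding, and bases outside the windows were not searched. The called genes Slc1a5, Slc7a2, Slc7a5, Slc6a6 and Slc38a3 had no window and were not searched. The 250 bases before the start are shown for both heavy chains, which rose alike, for the called light chain with a TGATGNAA match and for Slc7a11, which holds the same motif on both strands and was not called. Capitals mark matches to TGATGNAA on either strand. The windows of both heavy chains hold no match to the letters given for the 3 motifs. Variants of these letters were not searched.
Slc3a1, chr17:85028097-85028346, plus strand: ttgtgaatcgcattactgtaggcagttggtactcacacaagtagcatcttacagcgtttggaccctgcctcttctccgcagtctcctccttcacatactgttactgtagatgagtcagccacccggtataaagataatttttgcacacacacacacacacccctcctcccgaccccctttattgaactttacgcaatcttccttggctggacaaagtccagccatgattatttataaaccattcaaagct
Slc3a2, chr19:8713898-8714147, minus strand: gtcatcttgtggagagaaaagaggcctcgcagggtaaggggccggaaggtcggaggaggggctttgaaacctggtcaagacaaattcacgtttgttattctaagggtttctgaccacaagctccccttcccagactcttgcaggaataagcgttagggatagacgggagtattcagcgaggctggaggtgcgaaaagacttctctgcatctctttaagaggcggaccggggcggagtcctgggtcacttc
Slc7a7, chr14:54417703-54417952, minus strand: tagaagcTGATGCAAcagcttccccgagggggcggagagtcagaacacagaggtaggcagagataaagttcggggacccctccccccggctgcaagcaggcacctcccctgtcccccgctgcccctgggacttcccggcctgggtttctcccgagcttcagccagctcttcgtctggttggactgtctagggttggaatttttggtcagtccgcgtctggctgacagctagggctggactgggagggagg
Slc7a11, chr3:50443614-50443863, minus strand: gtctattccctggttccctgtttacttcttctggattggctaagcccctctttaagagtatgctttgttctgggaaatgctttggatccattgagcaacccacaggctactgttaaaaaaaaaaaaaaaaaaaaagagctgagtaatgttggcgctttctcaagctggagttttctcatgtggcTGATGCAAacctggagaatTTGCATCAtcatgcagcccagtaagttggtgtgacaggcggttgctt
In Slc7a7 the match begins 243 bases before the start shown. A window of another start of the gene holds the same match, beginning 1 base before that start. It also holds a further match, TGATGAAA, that begins 141 bases before that start. The remaining windows of Slc7a7 hold no match. In Slc7a11 the matches begin 66 and 47 bases before the start and face each other.

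**Figure D2:**
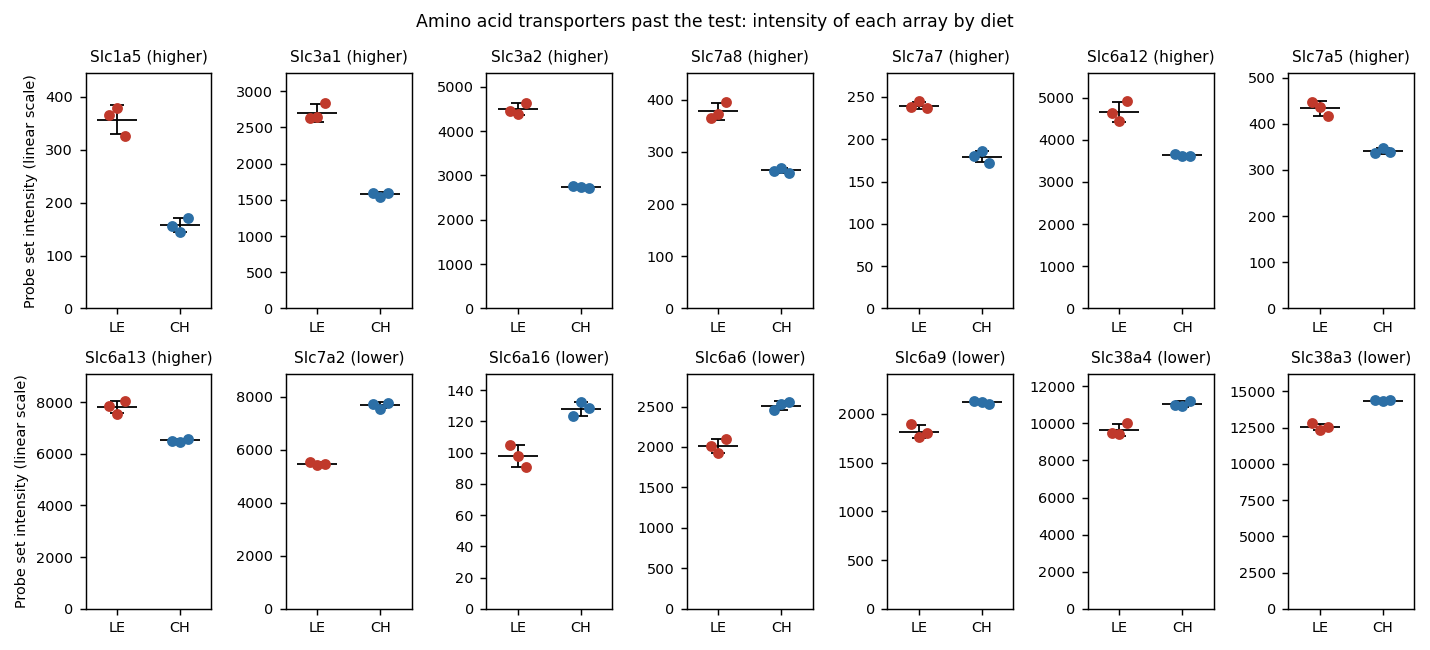
Intensity of each array (linear scale, axis from 0) for the 14 transporters past the test, LE arrays in red on the left and CH arrays in blue on the right of each panel; horizontal marks and bars give the mean and SD of 3 arrays. The diets do not overlap in any of the 14 panels, and Slc1a5 shows the widest gap relative to its level.

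Among the carriers of the Slc1a family, Slc1a5 rose and the other 6 did not pass. Slc1a5 exchanges glutamine for other small neutral amino acids and is low in normal liver. It had 365.8, 378.9 and 325.2 in LE livers, against 156.3, 144.4 and 171.6 in CH livers. Every LE array was well above the CH arrays, a change of 2.26-fold (log2 1.18, SE 0.08, adjusted p = 8.09e-05) that was the largest among the 60 in either direction. Slc1a4, a related exchanger of alanine, serine and cysteine, had 316.0, 290.4 and 326.6 in LE livers, against 275.0, 291.1 and 277.9 in CH livers (log2 0.14, SE 0.06, adjusted p = 0.19), with LE2 just below CH2. Slc1a2, the glutamate carrier of the hepatocytes around the central vein, had 2540, 2509 and 2531 in LE livers, against 2614, 2569 and 2469 in CH livers. Its change was log2 -0.01 (SE 0.05, adjusted p = 0.912), although it has a clear signal. The remaining Slc1a genes, Slc1a1, Slc1a3, Slc1a6 and Slc1a7, lay between log2 -0.05 and 0.03.

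The arginine carrier of the liver fell. Slc7a2, a transporter of basic amino acids of which hepatocytes use a splice form with low affinity, had 5543, 5411 and 5466 in LE livers, against 7727, 7539 and 7769 in CH livers. The arrays of each diet agreed closely, and the LE values were all lower. It was 1.40-fold lower (log2 -0.49, SE 0.05, adjusted p = 3.93e-04), the largest fall among the 60. Slc7a1, the carrier of basic amino acids found in most other tissues, had 244.4, 204.9 and 237.8 in LE livers, against 219.7, 226.3 and 205.8 in CH livers (log2 0.07, SE 0.08, adjusted p = 0.642). The diets overlapped for Slc7a1. The others of this group, Slc7a3, Slc7a4 and Slc7a14, had changes of log2 -0.09 to 0.05 and were not called.

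Within the Slc6a family, Slc6a12 and Slc6a13 rose and Slc6a6, Slc6a9 and Slc6a16 fell. Slc6a12, which imports betaine and GABA and serves in osmotic balance, had 4644, 4443 and 4917 in LE livers, against 3663, 3622 and 3625 in CH livers (1.28-fold, log2 0.36, SE 0.05, adjusted p = 0.00426). Slc6a13, a GABA and taurine carrier of hepatocytes, had 7835, 7550 and 8034 in LE livers, against 6500, 6467 and 6582 in CH livers (1.20-fold, log2 0.26, SE 0.05, adjusted p = 0.0117). Both had LE arrays that were more spread than the CH arrays but lay entirely above them. Without CH1 the adjusted p of Slc6a13 was 0.0535, and over all alternatives it was 2.71e-06 to 0.0535. Slc6a12 and Slc6a13 are next to each other in the genome, and of the 7 pairs of transporters with no other protein-coding gene between them in RefSeq, a search made after the values were seen, this was the 1 pair with both members called. In 2 pairs (Slc38a2 with Slc38a4, and Slc6a16 with Slc6a21) 1 member was called, and in 4 neither was.

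Slc6a6, the main taurine carrier, had 2018, 1929 and 2096 in LE livers, against 2454, 2531 and 2553 in CH livers (1.25-fold lower, log2 -0.32, SE 0.05, adjusted p = 0.00658). Taurine is the partner with which mouse liver conjugates bile acids. Slc6a9, a glycine carrier, had 1895, 1761 and 1802 in LE livers, against 2134, 2123 and 2100 in CH livers (1.17-fold lower, log2 -0.22, SE 0.05, adjusted p = 0.0267). The diets did not overlap for either gene. The Slc6a9 call ended without LE2, LE3, CH1, CH2 or CH3 (the adjusted p was then 0.0643 to 0.102; across every alternative it ran from 3.48e-04 to 0.102). Slc6a16, an orphan member of the family, had 104.8, 98.0 and 91.1 in LE livers, against 123.5, 132.3 and 128.4 in CH livers (log2 -0.38, SE 0.06, adjusted p = 0.00714), at a signal in the dimmest 33.3% of genes. Slc6a8, the creatine carrier, had 257.2, 243.6 and 270.7 in LE livers, against 221.6, 223.6 and 240.2 in CH livers (log2 0.17, SE 0.06, adjusted p = 0.126). Its LE arrays all lay above its CH arrays without passing the test. The other 12 Slc6a members, most of them transporters of nerve cells or kidney, changed by log2 -0.18 to 0.13 and were not called.

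The glutamine carrier Slc38a3 and the liver-enriched Slc38a4 fell slightly. Slc38a3, which moves glutamine, asparagine and histidine across the hepatocyte membrane, had 12790, 12339 and 12539 in LE livers, against 14377, 14311 and 14378 in CH livers (1.14-fold lower, log2 -0.19, SE 0.05, adjusted p = 0.0315). Slc38a4, a system A carrier found mainly in liver and placenta, had 9502, 9398 and 10021 in LE livers, against 11002, 10921 and 11230 in CH livers (1.15-fold lower, log2 -0.20, SE 0.05, adjusted p = 0.04). The diets did not overlap for either gene, but the falls were small and both calls were lost in most fits with 1 array left out. Slc38a3 lost its call when any 1 array was left out (the adjusted p was then 0.0594 to 0.116; across every alternative it ran from 1.17e-05 to 0.116), and Slc38a4 lost it without LE1, LE2, CH1, CH2 or CH3 (0.0879 to 0.128; across every alternative 6.47e-05 to 0.128).

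Slc38a2, the system A carrier that many cells raise when amino acids run short, lies next to Slc38a4 in the genome and did not share its direction. It had 3996, 3809 and 4118 in LE livers, against 3541, 3446 and 3641 in CH livers (log2 0.17, SE 0.05, adjusted p = 0.0915). All LE arrays were above all CH arrays, and it passed after quantile normalisation, without the dimmest 33.3% of genes, with an intensity trend and in the test in the manner of cyberT (adjusted p 0.00315 to 0.0478; across every alternative 0.00315 to 0.222). Slc38a9, the lysosomal arginine sensor of the growth kinase mTORC1, had 561.5, 560.8 and 587.1 in LE livers, against 538.3, 532.2 and 569.3 in CH livers (log2 0.06, SE 0.05, adjusted p = 0.546). The diets overlapped. Its second probe set gave log2 0.02 (SE 0.06), and the second probe set of Slc38a1, another system A member, gave log2 0.13 (SE 0.12) beside 0.11 (SE 0.07) on the one used. Slc38a7, a lysosomal exporter of glutamine, had 698.9, 691.3 and 750.9 in LE livers, against 757.5, 796.6 and 788.4 in CH livers (log2 -0.13, SE 0.05, adjusted p = 0.187), and it passed after quantile normalisation (adjusted p = 0.0469, and 0.0469 to 0.391 over all alternatives). Slc38a1, Slc38a5, Slc38a6, Slc38a8, Slc38a10 and Slc38a11 lay between log2 -0.13 and 0.11 and were not called.

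Of the 4 Slc36a and 3 Slc43a genes, 0 passed limma's test, although 3 had an unadjusted p under 0.05 and each of these passed in some alternatives. Slc36a4, a high-affinity carrier of proline and tryptophan, had 453.0, 419.2 and 459.2 in LE livers, against 379.5, 335.8 and 412.4 in CH livers (log2 0.24, SE 0.08, adjusted p = 0.106). The groups nearly met, at LE2 and CH3. It passed without the dimmest 33.3% of genes, with an intensity trend and in the test in the manner of cyberT (adjusted p 0.022 to 0.0445; across every alternative 0.022 to 0.247). Slc36a1, which exports small amino acids from the lysosome with protons, had 1404, 1386 and 1536 in LE livers, against 1402, 1441 and 1416 in CH livers (log2 0.02, SE 0.06, adjusted p = 0.873), and the diets overlapped. Slc43a2, a facilitative carrier of branched-chain amino acids and phenylalanine, had 339.4, 297.7 and 326.6 in LE livers, against 270.8, 279.3 and 275.4 in CH livers (log2 0.22, SE 0.06, adjusted p = 0.055). All its LE arrays were above the CH arrays, and it passed without LE2 (adjusted p = 0.0342) and in 4 further alternatives (0.0192 to 0.164 across every alternative). Its relative Slc43a1 had 298.0, 265.8 and 287.1 in LE livers, against 319.7, 325.2 and 310.8 in CH livers (log2 -0.17, SE 0.06, adjusted p = 0.115), and it passed after quantile normalisation and after centring (0.0455 to 0.283 across every alternative). The LE arrays of Slc43a1 were all below the CH arrays, the opposite order to Slc43a2. Slc43a3, which carries purine bases and is grouped here by family, changed by log2 0.04 (SE 0.05, adjusted p = 0.683).

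**Figure D3:**
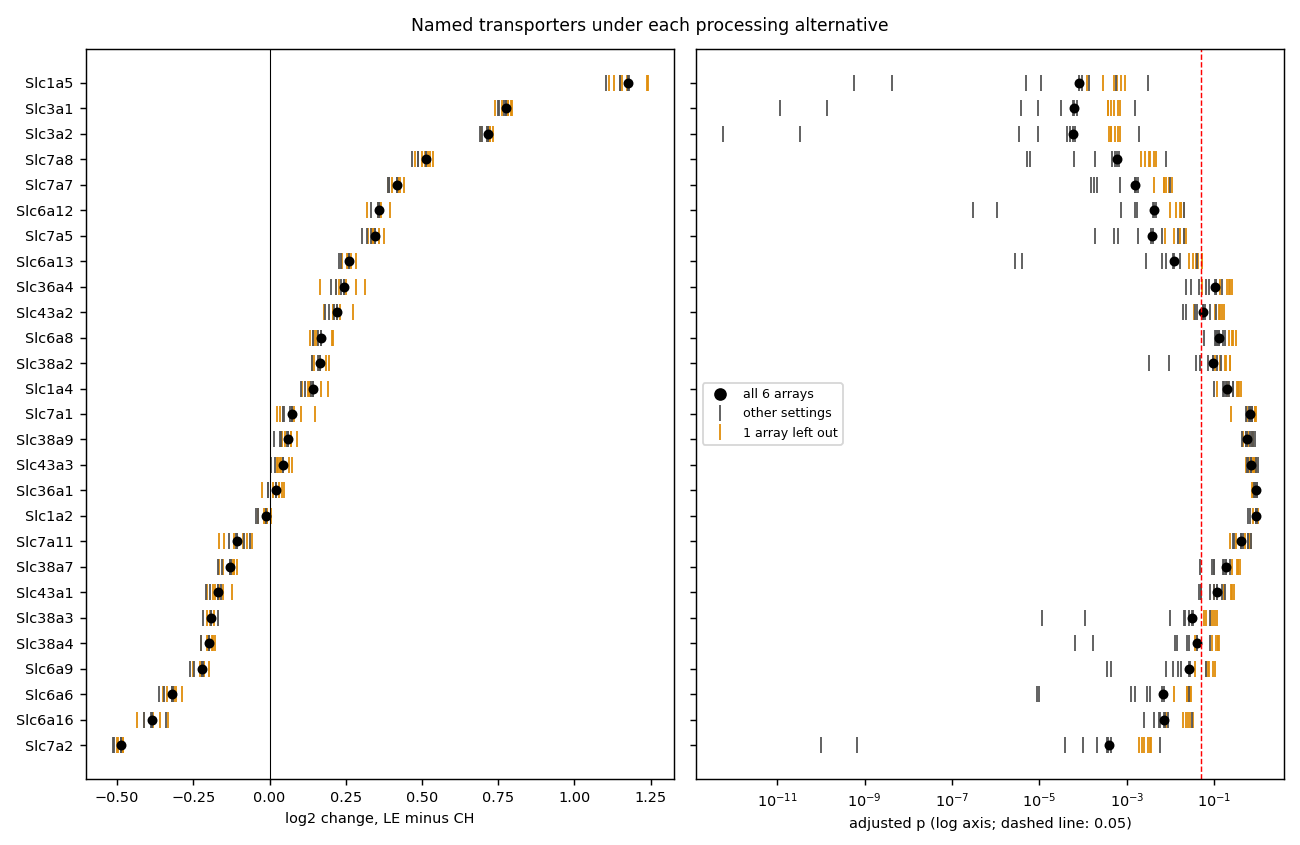
Log2 change (left) and adjusted p (right, log axis, dashed line at 0.05) of 27 named transporters; black points are the fit of all 6 arrays, grey ticks the other settings and orange ticks the fits with 1 array left out. Slc1a5, both heavy chains, Slc7a8, Slc7a7, Slc6a12, Slc7a5, Slc6a6, Slc6a16 and Slc7a2 stayed below 0.05 in each fit shown, while Slc38a3, Slc38a4, Slc6a9 and Slc6a13 crossed it, Slc6a13 without CH1.

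Genes that ATF4, the transcription factor of the amino acid response, is known to control rose in part. Of 24 such genes other than transporters, 7 rose (29.2%; all genes 7.01%) and 1 fell (4.17%; all genes 5.08%). The share that fell was near that of all genes. The other 16 did not pass, and the median of the 24 was log2 0.14. Asns, which makes asparagine, had a mean intensity of 704 ± 51 in LE livers and 331 ± 17 in CH livers (SD, n = 3 each; log2 1.08, SE 0.07). The stress-induced inhibitor of mTORC1 Ddit4 (log2 0.98, SE 0.05), the transcription factor Atf3 (0.81, SE 0.12) and Atf4 itself (0.72, SE 0.05) also rose, whereas Chac1, which degrades glutathione, fell by 0.36 (SE 0.05). Among the transporters, Slc1a4, Slc1a5, Slc38a2, Slc3a2, Slc7a1, Slc7a5 and Slc7a11 are known ATF4 targets. Of these, Slc1a5, Slc3a2 and Slc7a5 rose and the other 4 did not pass, where 7.01% of all genes rose. They were not a list set in advance, so the count says nothing about ATF4 targets as a group. Psat1, Phgdh and Trib3, further targets, are among the 16 that did not pass.

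Enzymes that break down amino acids fell in part. Of 38 measured enzymes of liver amino acid catabolism and the urea cycle, 17 fell (44.7%; all genes 5.08%) and 1 rose (2.63%; all genes 7.01%). The other 20 did not pass, and the median of the 38 was log2 -0.11. Otc, the ornithine transcarbamylase of the urea cycle, had a mean of 4156 ± 86 in LE livers and 6438 ± 268 in CH livers (SD, n = 3 each; log2 -0.63, SE 0.05). Dbt, of the complex that degrades branched-chain keto acids, fell by 0.50 (SE 0.05), Mccc1, of leucine breakdown, by 0.38 (SE 0.06), and Aass, of lysine breakdown, by 0.36 (SE 0.05). Arg1, the arginase that uses the substrate of Slc7a2, fell by 0.25 (SE 0.05). Glul, the glutamine synthetase of the hepatocytes around the central vein, was the member that rose (log2 0.27, SE 0.06, adjusted p = 0.0308), a call lost without LE2, LE3, CH1 or CH2.

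Of 13 measured enzymes of cysteine, taurine and glutathione, 5 fell (38.5%; all genes 5.08%), 1 rose (7.69%; all genes 7.01%) and 7 did not pass. The share that rose was near that of all genes. The glutathione synthetase Gss fell by 0.49 (SE 0.06), Chac2, which degrades glutathione, by 0.25 (SE 0.06) and the cysteine-making enzyme Cth by 0.21 (SE 0.05), whereas Ggct, of the same cycle, rose by 0.35 (SE 0.07). The number that fell was 1 when LE1, LE2, CH1, CH2 or CH3 was left out. Of 23 amino acid carriers outside the 60, most of them of other families, 4 rose (17.4%; all genes 7.01%) and 2 fell (8.7%; all genes 5.08%). The 2 of 23 is near the share of all genes that fell. The 23 include Slc6a20a and Slc6a20b, Slc6a genes whose symbols end in a letter, and neither was called. Slc25a44, the mitochondrial carrier of branched-chain amino acids, rose by 0.69 (SE 0.05), the lysosomal cysteine carrier gene Mfsd12 by 0.59 (SE 0.06) and the mitochondrial glutamate carrier Slc25a22 by 0.33 (SE 0.05), while the lysosomal histidine and peptide carrier Slc15a4 fell by 0.47 (SE 0.07). Another list held 31 genes of amino acid sensing at the lysosome, with subunits and regulators of the growth kinase mTORC1 among them. Of these 31, 2 rose (6.45%, all genes 7.01%) and 4 fell (12.9%, all genes 5.08%). The share that rose was near that of all genes. Those called included the sestrin gene Sesn1 (log2 0.86, SE 0.08), the folliculin partner Fnip1 (-0.40, SE 0.07), the folliculin gene Flcn (-0.38, SE 0.05) and the scaffold gene Lamtor1 (0.31, SE 0.06). The number that rose was 1 without LE1, LE2 or CH2, and the number that fell was 2 without LE1, LE2, CH1, CH2 or CH3.

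**Figure D4:**
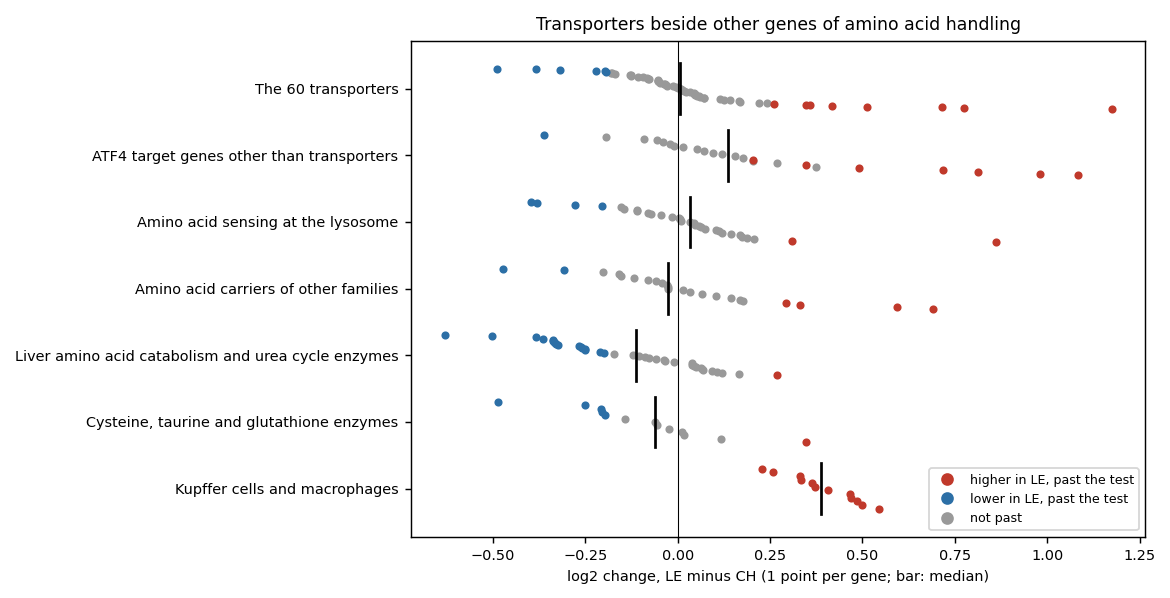
Log2 change of each gene (LE minus CH) for the 60 transporters, 5 lists of other genes of amino acid handling and the macrophage markers; red and blue points passed the test as higher and lower, grey points did not, and black bars are medians. The transporters spread to both sides of a median near 0, the catabolic enzymes lean to the left and all 12 macrophage markers lie to the right.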

How the data were processed

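Liver total RNA of 6 samples from mice, 3 per diet, was hybridised to Affymetrix Mouse Gene 1.0 ST arrays. The authors deposited 1 linear intensity per probe set, with array medians of 158 to 163. For the authors' background correction, normalisation and probe set summary, the method is not given in the sources used here; per the labels' design text they tested expression with Partek Genomics Suite and cyberT. Probe sets were named through the platform annotation: of 35556, 21789 had 1 gene symbol, 1621 several and 12146 none. Per gene the single-gene probe set with the highest mean over the 6 arrays was used, giving 19938 genes, and 2 of the 60 transporters had a second one.

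Values were taken as log2(intensity + 1), a scale that understates changes of dim genes, and compared with limma 3.58.1 (lmFit, eBayes) in R 4.3.3, two-sided, over all genes, without a replicate block. Adjusted p-values are limma's unless another test is named. Tables and plots used Python 3.11.15, pandas 2.3.3 and matplotlib 3.10.9. With 3 arrays per diet, exact permutation p-values stop at 0.1. The fits were also run on simulated data drawn with independent normal errors and limma's own spreads. Such data obey the model, so they could not show whether its assumptions hold here. The transporters and gene lists were chosen with earlier results of these data known. Named were all called transporters, carriers known from liver, the smallest p in a role group with no call, and up to 4 called genes per list; Slc7a6, Slc7a9 and the genes named only as not called or lost, and Chac1, Arg1 and Glul, were added after their values were seen. Alternatives were a replicate block, centring on array medians, quantile normalisation, no genes of the dimmest 33.3%, the mean of probe sets, an intensity trend with robust prior, a cyberT-like regularised test (window 101, prior weight 10, both assumed), pseudocounts of 16 and none, fits without 1 array and, for counts, a limit of 1.5-fold. The number of arrays limits the precision. Transporters of close sequence can share probes. Protein sequences were not used here.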

Additional observations from a re-analysis of the deposited data

How the results depend on the processing

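Of the 14 called transporters, 10 passed in every alternative run for them, and the 4 others (Slc6a13, Slc6a9, Slc38a3 and Slc38a4) kept their direction in each. No paired design is given by the labels. Same-numbered arrays of the diets had deviations from the group means that correlated at -0.021, -0.097 and 0.160, so the numbers were not taken as pairs, and 1 of the 3 LE arrays correlated best with the CH array of its own number. With the replicate block 8 transporters rose and 3 fell, and 657 genes fell in all, with 2 falling in the cysteine and glutathione list. The transporter counts were 7 to 9 higher and 3 to 5 lower with 1 array left out, and 3 higher and 0 lower at a limit of 1.5-fold. Over all genes, 1398 rose and 1012 fell (58.0% higher among the calls). After quantile normalisation this was 1460 and 1598 (47.7%), after centring 1215 and 1294 (48.4%), with an intensity trend 1961 and 1560, at the 1.5-fold limit 316 and 120, and with 1 array left out 938 to 1126 and 525 to 893. Among the transporters the same scalings gave 9 higher and 8 lower, and 8 higher and 7 lower. ATF4 targets that rose numbered 12 in the test in the manner of cyberT, with the intensity trend and when the dimmest 33.3% of genes were left out, and 5 to 6 with 1 array left out. Genes of the amino acid sensing list that rose numbered 4 with the intensity trend and 1 to 2 with 1 array left out, and those that fell 2 to 4. Amino acid carriers outside the 60 that fell numbered 4 after quantile normalisation and with the intensity trend. Catabolic enzymes that rose numbered 2 after quantile normalisation and without the dimmest 33.3%, 5 with the intensity trend, 4 in the test in the manner of cyberT and 0 to 1 with 1 array left out, and those that fell 12 to 18. Enzymes of the cysteine list that rose numbered 0 to 1 and those that fell 1 to 5 with 1 array left out. Of the 27 named transporters, each run under the alternatives that kept it, 2 near 0 changed sign: Slc1a2 was at -0.0365 to 0.0047 with 1 array left out (above 0 without CH1), and Slc36a1 at -0.0249 to 0.0487 (below 0 without LE3), at -0.0061 after quantile normalisation and at -0.0047 after centring. Of the other 33, which were compared under these scalings alone, Slc36a2, Slc6a5, Slc6a11, Slc6a14 and Slc7a9 went below 0 after centring, Slc38a6 after quantile normalisation and Slc38a10 after both, at -0.0246 to -0.0047. The causes were not tested. No detection call comes with the intensities, so which dim transporters were above background is not known.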
